A study of Homo sapiens with 12 samples.

Results

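The genes examined were targets of serum response factor (SRF) and its MRTF coactivators with roles in the actin cytoskeleton: SRF itself, ACTB, ACTG1, FLNA, TPM1, TAGLN, MYL9, VCL, ZYX and FHL2. They were taken by symbol from the count table. Each of the 10 symbols had a single row among 41878 gene rows, and 9 of the 10 passed the filter on low counts, which left 18030 genes for testing. MYL9 did not pass it.

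Polyadenylated RNA was sequenced from HEK293T, a widely used cell line derived from human embryonic kidney. All cells received 1 µg of plasmid by Effectene transfection, either an empty control or one that expresses TRPML3, the endolysosomal cation channel that MCOLN3 encodes. The study asked how this channel and a short starvation change transcription. The 4 groups were vector fed (control vector, 10% serum), vector starved (control vector, no serum for 4 h), TRPML3 fed (TRPML3 plasmid, 10% serum) and TRPML3 starved (TRPML3 plasmid, no serum for 4 h). Each group had 3 libraries, numbered 1 to 3 in the titles and described as biological triplicates of 1 cell line. Where nothing more says that they were separate cultures, p-values measure only the spread between these libraries. In such bulk samples, a difference in every cell and a difference in some of the cells, for example only those that took up plasmid, cannot be told apart.

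SRF is a transcription factor that binds the CArG box, a short motif of 2 C, 6 A or T and 2 G, and works with either of 2 families of partners. The MRTF coactivators bind monomeric actin and stay in the cytoplasm until actin assembles into filaments, as happens after serum is added, and then enter the nucleus and switch on genes for actin and adhesion proteins. The ternary complex factors ELK1, ELK3 and ELK4 act on immediate early genes such as FOS and EGR1 downstream of ERK. Serum withdrawal is a standard way to lower both inputs in cultured cells.

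The promoters of these genes are shown first, because the CArG box is what the set is known for. RefSeq promoter windows (GRCh38.p14) were at hand for 7 of the 10 genes, in 11 windows, since some genes have several transcript starts. ACTB, TAGLN and MYL9 were without one. An exact CArG box, searched over the whole window on both strands (the motif is its own reverse complement), was present in 4 of the 7 genes: SRF, ACTG1, FLNA and FHL2. Across all windows, 454 of 35116 (1.29%) held an exact box, and 438 of 27305 genes (1.60%) had one in at least 1 window. The 110 bases just upstream of the start are printed below in lower case, with CArG boxes in capitals. They lie at chr6:43171159-43171268 on the plus strand for SRF, chr17:81512800-81512909 on the minus strand for ACTG1, chrX:154374635-154374744 on the minus strand for FLNA, chr2:105399052-105399161 and chr2:105438514-105438623 on the minus strand for the inner and outer starts of FHL2, and chr7:143381235-143381344 on the plus strand for ZYX. The ZYX box has 1 mismatch.
SRF: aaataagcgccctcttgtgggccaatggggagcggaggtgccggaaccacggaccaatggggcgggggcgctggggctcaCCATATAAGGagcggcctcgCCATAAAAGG
ACTG1: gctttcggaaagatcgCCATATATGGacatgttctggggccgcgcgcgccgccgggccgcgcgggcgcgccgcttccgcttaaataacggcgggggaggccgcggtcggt
FLNA: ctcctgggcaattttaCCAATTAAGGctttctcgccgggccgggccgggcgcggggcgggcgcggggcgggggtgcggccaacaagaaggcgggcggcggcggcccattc
FHL2, inner start: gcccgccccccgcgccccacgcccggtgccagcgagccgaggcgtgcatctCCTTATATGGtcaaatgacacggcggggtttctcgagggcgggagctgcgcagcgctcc
FHL2, outer start: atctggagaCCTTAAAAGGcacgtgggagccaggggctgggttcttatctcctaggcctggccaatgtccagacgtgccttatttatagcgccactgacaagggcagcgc
ZYX: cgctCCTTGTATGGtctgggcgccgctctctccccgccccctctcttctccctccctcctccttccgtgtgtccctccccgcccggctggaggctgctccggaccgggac
SRF carried 2 exact boxes, whose first bases lay 30 and 10 bases upstream of the start, and a further box with 1 mismatch at base 14 downstream of it. A pair of exact boxes in 1 window was found in 11 of 35116 windows (0.0313%). The boxes of ACTG1 and FLNA both began 94 bases upstream. The 2 FHL2 boxes belonged to different starts, 59 bases upstream of the inner one and 101 bases upstream of the outer one, and another FHL2 window held the outer box again, 85 bases from its own start. The ZYX box began 106 bases upstream. The other start of SRF and the remaining start of FHL2 had no box. With 1 mismatch allowed, 5 of the 7 genes had a box, but so did 22.3% of all genes. No exact or 1-mismatch box was found in the windows of VCL and TPM1, which says only that these letters are not in that stretch.

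**Figure D1:**
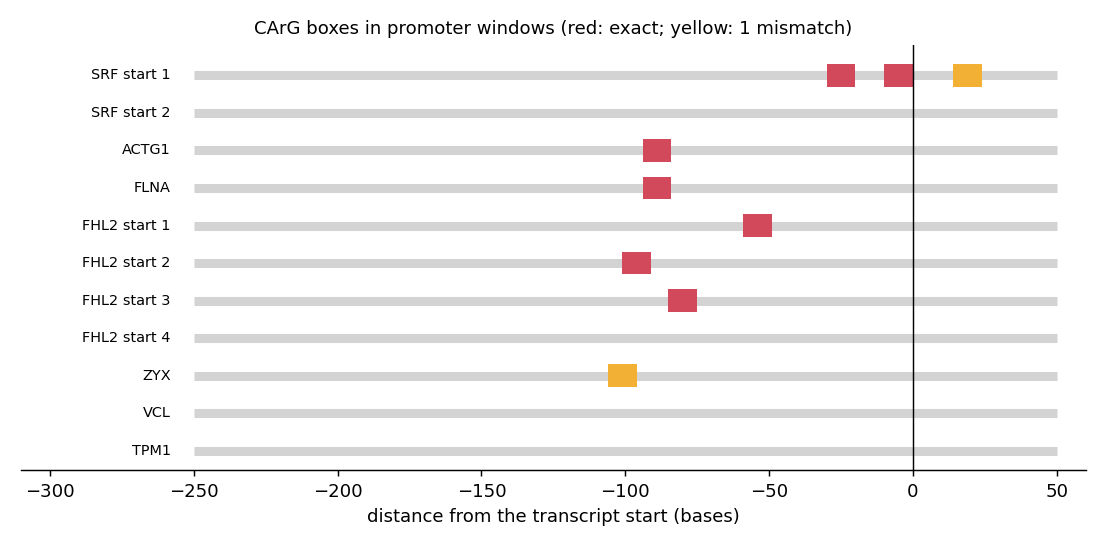
Position of CArG boxes in the 11 RefSeq promoter windows of 7 genes, as distance from the transcript start in bases. Red bars are exact boxes and yellow bars boxes with 1 mismatch; SRF is the only one of the 7 genes with 2 exact boxes in 1 window, and VCL and TPM1 have none.

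Library totals ran from 33101540 to 43700547 counts, so counting error was small for all tested members. MCOLN3, the transfected gene, had 9.31 to 18.4 CPM (counts of a gene brought to a common library size by TMM) in 6 vector libraries. In the 6 TRPML3 libraries it had 4929 to 58223 CPM, as labelled. By replicate these were 6211, 4929 and 39972 CPM when fed and 41362, 58223 and 16896 CPM when starved. The part of this difference in starved against fed TRPML3 cells, in the interaction and in average starvation was not tested. In replicates 1 and 2, both starved TRPML3 libraries had more MCOLN3 than both fed ones. In fits without replicate 3, starvation and MCOLN3 level therefore cannot be told apart in TRPML3 cells. The interaction and the average starvation effect of those fits include these cells. All 8 HEK293-type markers were above 1 CPM in every group, 3 of 6 smooth muscle and 3 of 7 fibroblast markers were too, and none of 5 blood and endothelial markers was. The mitochondrial share differed by replicate number. In the replicate 3 libraries mitochondrial genes took 4.83 to 5.70% of counts, the highest share in each group, against 1.05 to 4.40% in the other libraries. Replicate 2 had the lowest share in each group, at 1.07% in vector fed, 1.26% in vector starved, 2.52% in TRPML3 fed and 1.05% in TRPML3 starved. The part of this in the results was not tested. With all 12 libraries, edgeR called 0 of 18030 genes for starvation averaged over both plasmids (1704 genes at an unadjusted p under 0.05; DESeq2 called 206). Without replicate 3 in each group it called 810 of 18052 genes, without replicate 1 it called 1 gene, and without replicate 2 it called 0. Values of the average effects without replicate 3 are therefore given beside those with all libraries, with those of some single comparisons of SRF, FLNA and TPM1. That fit was singled out by its count of calls in these same data. Its p-values and standard errors do not take this choice into account.

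No member passed the test in any comparison when all 12 libraries were used. At an adjusted p under 0.05 (edgeR quasi-likelihood test, adjusted over all genes), the count of members was 0 of 9 for starved against fed cells in vector (background 0.00555% of genes) and in TRPML3 (0%), 0 of 9 for TRPML3 against vector when fed (0.0111%) and when starved (0.00555%), and 0 of 9 for the interaction, which compares the starvation responses of TRPML3 and vector cells (0%). It was also 0 of 9 for the average starvation effect (0%) and the average TRPML3 effect (0.0111%). At an unadjusted p under 0.05, the only members were SRF in 3 of the 7 comparisons and ACTB in 1. The background at that threshold was 4.44% of genes for starved against fed in vector, 2.2% for TRPML3 against vector in starved cells, 2.07% for the interaction and 9.45% for average starvation. It was 5.71% for starved against fed in TRPML3, 2.21% for TRPML3 against vector in fed cells and 2.62% for average TRPML3, where no member reached it. No member separated the TRPML3 and vector libraries of starved cells without overlap, as 6.58% of genes did. DESeq2 and limma also called no member. These comparisons share libraries: each group of 3 enters several of them, so their values are not independent of each other.

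SRF, on chromosome 6 (43171299 to 43181507, plus strand, GRCh38), is its own target. It had 65.8, 80.2 and 107 CPM in vector fed replicates 1, 2 and 3, and 29.9, 40.2 and 78.1 CPM in vector starved. In TRPML3 fed it had 64.0, 67.7 and 45.9 CPM, and in TRPML3 starved 101, 87.6 and 75.7 CPM. Among vector cells, 2 of the 3 starved libraries lay below every fed one and the third lay within the fed range. Among TRPML3 cells, all 3 starved libraries lay above all 3 fed ones. Such separation of starved from fed TRPML3 libraries, in either direction, was seen for 11.2% of genes tested. The log2 fold change of starved over fed SRF was -0.77 ± 0.34 (SE) in vector (edgeR, unadjusted p = 0.0461, adjusted p = 1). In TRPML3 it was 0.57 ± 0.34 (edgeR, unadjusted p = 0.123, adjusted p = 0.89). The difference between the 2 responses was 1.34 ± 0.48 in log2, with an unadjusted p of 0.0184 that did not hold after adjustment over 18030 genes (edgeR, adjusted p = 1).

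The comparison of plasmids gave the same SRF values from the other side. In starved cells, SRF was 0.83 ± 0.34 in log2 for TRPML3 over vector (edgeR, unadjusted p = 0.0337, adjusted p = 1). In fed cells it was -0.51 ± 0.34 (edgeR, unadjusted p = 0.164, adjusted p = 1). Averaged over plasmids, starvation gave -0.10 ± 0.24, and averaged over serum states TRPML3 gave 0.16 ± 0.24, since the opposite signs cancel. Without replicate 3, SRF for TRPML3 over vector was 1.43 ± 0.21 in starved cells (edgeR, unadjusted p = 0.000521, adjusted p = 0.588) and -0.14 ± 0.21 in fed cells. The average TRPML3 effect then was 0.64 ± 0.15 (edgeR, adjusted p = 0.957), against -0.14 ± 0.28 without replicate 1. Without replicate 1, SRF for TRPML3 over vector was 0.46 in starved cells and -0.73 in fed cells. Starvation without replicate 3 gave -1.04 ± 0.21 in vector, 0.52 ± 0.21 in TRPML3 and -0.26 ± 0.15 on average, none of which passed (edgeR, adjusted p = 0.151, 0.302 and 0.351). The interaction without replicate 3 was 1.57 ± 0.30 (edgeR, unadjusted p = 0.00185, adjusted p = 0.831). Leaving out single libraries or a replicate number gave interaction values of 1.08 to 1.83, the highest without vector starved replicate 3, and none passed the adjusted threshold.

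**Figure D2:**
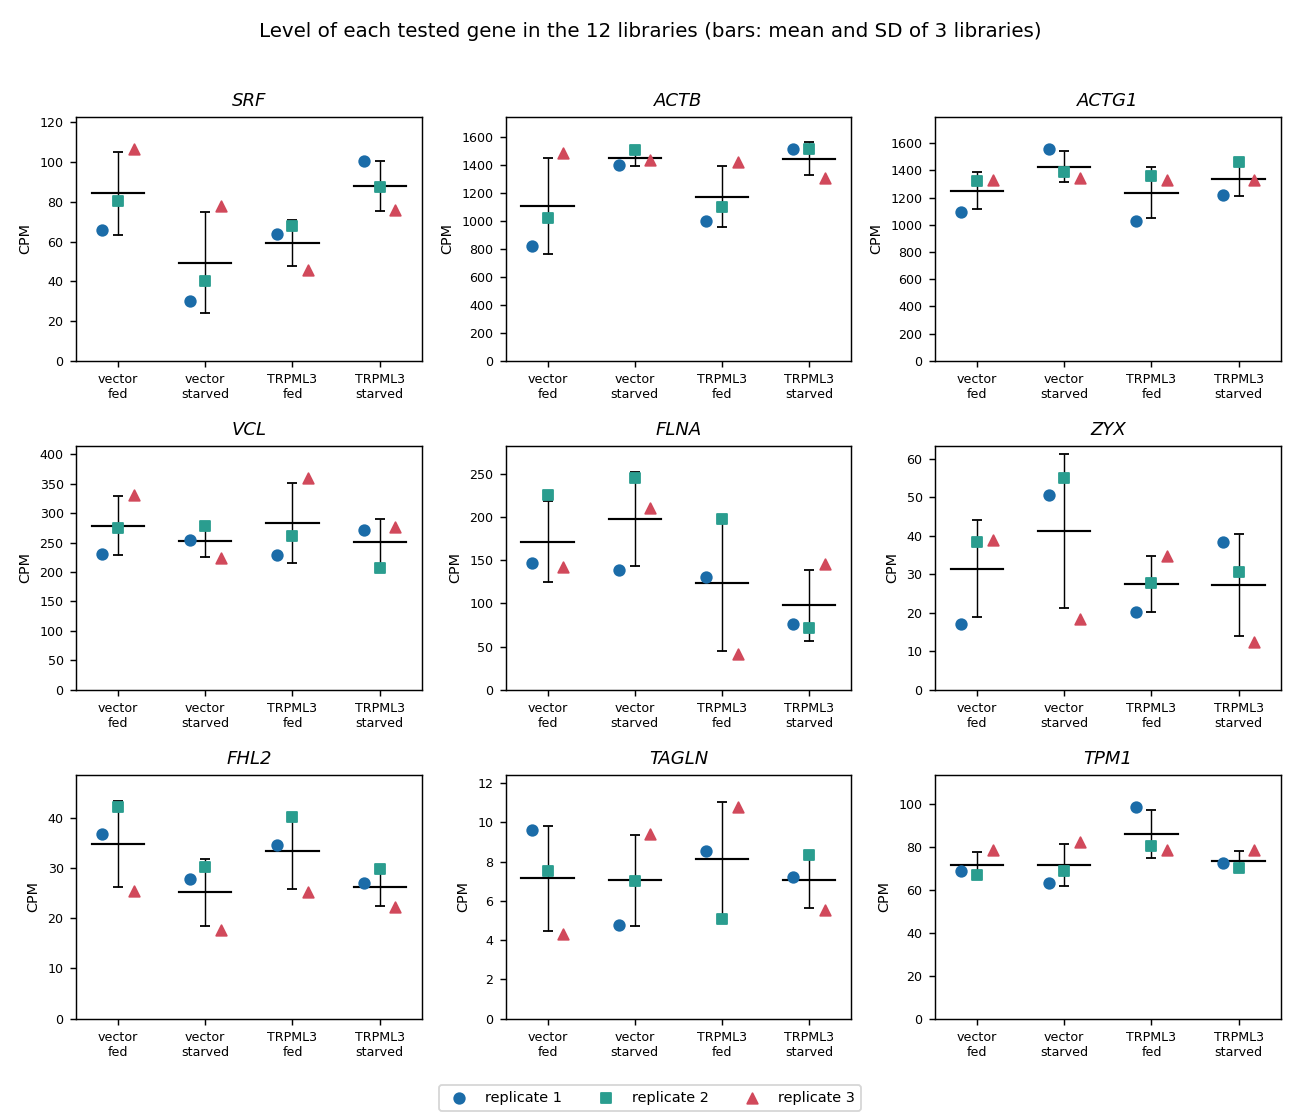
CPM of the 9 tested genes in each of the 12 libraries, by group; symbols mark the replicate number, and black bars give the mean and SD of 3 libraries. SRF is lowest in vector starved replicates 1 and 2 (29.9 and 40.2 CPM), and ACTB in fed replicates 3 (1484 and 1420.2 CPM) reaches the starved range.

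The partners of SRF were measured as a list of 8 genes, all tested: MRTFA, MRTFB and MYOCD, which are coactivators, ELK1, ELK3 and ELK4, SCAI, a repressor of MRTF, and MICAL2, an actin-oxidizing enzyme. None was called in the 2 average effects (edgeR), and none reached an unadjusted p under 0.05 there. For average starvation, 2 had a fold change above 0 and 6 below it, with a median log2 fold change of -0.40 beside 0.0062 over all genes. MRTFA was present at 9.66 to 29.4 CPM in all libraries, with group means of 21.7 ± 10.6 CPM in vector fed, 23.9 ± 2.95 in vector starved, 16.1 ± 2.28 in TRPML3 fed and 23.5 ± 1.91 in TRPML3 starved (SD, n = 3). MYOCD, the cofactor of cardiac and smooth muscle, stayed at or under 1.53 CPM in every library. SCAI and ELK3 had the smallest p for average starvation, with log2 fold changes of -0.41 ± 0.20 and -0.39 ± 0.22 (edgeR, adjusted p = 0.558 and 0.637). For average TRPML3 these were ELK1 and MRTFA, at -0.81 ± 0.55 and -0.23 ± 0.25 (edgeR, adjusted p = 1 for both). Without replicate 3, ELK3 was called, at -0.73 ± 0.14 (edgeR, adjusted p = 0.0452; 1.94% of genes were called lower in that fit). It was -0.24 ± 0.33 without replicate 1 and -0.18 ± 0.31 without replicate 2 (edgeR, adjusted p = 1 for both).

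ACTB and ACTG1 encode the 2 cytoplasmic actins, whose monomers hold MRTF in the cytoplasm. ACTB (chromosome 7, 5527147 to 5563784, minus strand) had 816, 1020.2 and 1484 CPM in vector fed and 1401, 1506 and 1437 CPM in vector starved. It had 998, 1101 and 1420.2 CPM in TRPML3 fed and 1513, 1513 and 1306 CPM in TRPML3 starved. In both plasmids, fed replicates 1 and 2 lay below all starved libraries, and fed replicate 3 lay within the starved range. The average starvation effect on ACTB was 0.34 ± 0.15 in log2, which did not pass (edgeR, unadjusted p = 0.0383, adjusted p = 0.491). It was 0.39 ± 0.21 in vector and 0.30 ± 0.21 in TRPML3 cells. Without replicate 3, ACTB was the one member called, at 0.61 ± 0.095 in log2 (edgeR, unadjusted p = 0.000673, adjusted p = 0.0334). It was 0.19 ± 0.17 without replicate 1 and 0.26 ± 0.23 without replicate 2 (edgeR, adjusted p = 1 for both). In the fit without replicate 3, 1 of 9 members was called higher and 0 lower, against 2.54% of genes called higher and 1.94% lower. TRPML3 against vector gave 0.040 ± 0.15 on average, and 0.13 ± 0.095 without replicate 3.

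ACTG1 (chromosome 17, 81509971 to 81523847, minus strand) had 1094, 1323 and 1332 CPM in vector fed and 1557, 1384 and 1342 CPM in vector starved. In TRPML3 cells it had 1025, 1357 and 1328 CPM when fed and 1216, 1458 and 1329 CPM when starved. All vector starved libraries lay above all vector fed ones, narrowly so at the closest pair (1342 against 1332 CPM), and the TRPML3 groups overlapped. Starved and fed vector libraries did not overlap for 9.93% of genes tested. The fold change in vector was 0.19 ± 0.14 in log2 (edgeR, unadjusted p = 0.204, adjusted p = 1), and the average over plasmids was 0.15 ± 0.10 (edgeR, adjusted p = 0.698). The average TRPML3 effect was -0.056 ± 0.10. Without replicate 3 the averages were 0.24 ± 0.13 for starvation and -0.073 ± 0.13 for TRPML3. The row named ACTG1, like that named ZYX, carries an Ensembl identifier that is not in GENCODE release 29, so positions and lengths of both were matched by symbol. How reads shared by near-identical actin genes were counted is not given in the sources used here. Rows named as processed pseudogenes of ACTB and ACTG1 held few counts, at 0.051% and 0.195% of those of the parent genes.

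FLNA, TPM1, TAGLN and MYL9 act on actin filaments. FLNA (chromosome X, 154348524 to 154374638, minus strand) encodes filamin A, which crosslinks filaments and ties them to membrane proteins. It had 146, 226 and 142 CPM in vector fed and 139, 246 and 210.1 CPM in vector starved. In TRPML3 fed it had 131, 198 and 40.9 CPM, and in TRPML3 starved 75.6, 71.9 and 145 CPM. The 3 libraries under 100 CPM were all TRPML3 libraries, and the other 3 TRPML3 libraries lay within or just below the vector range. Among libraries of the same replicate number, the TRPML3 library was below the vector one in 3 of 3 fed and 3 of 3 starved pairs. The share of all genes with that pattern was not computed, so the count is a description only. The average TRPML3 effect was -0.75 ± 0.35 in log2, the largest in size among the members for that comparison, and did not pass (edgeR, unadjusted p = 0.0574, adjusted p = 1). With the replicate number as a block it was -0.73 (edgeR, adjusted p = 1). It was -0.48 ± 0.50 in fed and -1.02 ± 0.50 in starved cells. The FLNA interaction was -0.54 ± 0.70 and had no stable size, running from -1.21 without replicate 3 to 0.069 without replicate 2. The average starvation effect was -0.064 ± 0.35. Without replicate 3 it was -0.54 ± 0.26 (edgeR, adjusted p = 0.271), and without replicate 2 it was 0.31 ± 0.41 (edgeR, adjusted p = 1). TRPML3 against vector without replicate 3 was -0.17 ± 0.36 in fed cells, -1.38 ± 0.37 in starved cells and -0.77 ± 0.26 on average (edgeR, adjusted p = 1 for each). In starved cells FLNA was -0.67 without replicate 2. With single libraries or a replicate number left out, its value in fed cells ran from -0.98 to -0.060.

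TPM1 (chromosome 15, 63042632 to 63071915, plus strand) encodes a tropomyosin that lines the filament. It had 68.7, 66.8 and 78.7 CPM in vector fed, 63.3, 68.8 and 82.6 CPM in vector starved, 98.7, 80.4 and 78.8 CPM in TRPML3 fed and 72.5, 70.1 and 78.5 CPM in TRPML3 starved. The TRPML3 fed libraries lay above both the vector fed and the TRPML3 starved ones, narrowly so at the closest pairs (78.8 against 78.7 and 78.5 CPM). Fed TRPML3 and vector libraries did not overlap for 7.09% of genes tested. The log2 fold change was 0.27 ± 0.17 for TRPML3 over vector in fed cells (edgeR, unadjusted p = 0.149, adjusted p = 1) and -0.22 ± 0.17 for starved over fed in TRPML3 cells (edgeR, unadjusted p = 0.223, adjusted p = 0.935). Averages were -0.11 ± 0.12 for starvation and 0.15 ± 0.12 for TRPML3. Without replicate 3 they were -0.17 ± 0.12 and 0.26 ± 0.12, and TPM1 in fed cells was 0.41 ± 0.17 (edgeR, unadjusted p = 0.0469, adjusted p = 1). Without replicate 1 the value in fed cells was 0.12.

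TAGLN (chromosome 11, 117199321 to 117204782, plus strand) encodes transgelin, an actin-binding protein that is abundant in smooth muscle. It was low in these cells, at 4.30 to 10.8 CPM over the 12 libraries, and all groups overlapped. Its average effects were -0.11 ± 0.28 for starvation and 0.091 ± 0.28 for TRPML3, and -0.16 ± 0.26 and 0.041 ± 0.26 without replicate 3. MYL9 (chromosome 20, 36541484 to 36551447, plus strand) encodes a regulatory light chain of myosin. It had 8 counts in vector fed replicate 3 (0.230 CPM) and 0 counts in the other 11 libraries. A count of 0 allows up to 3 counts, or 0.0687 to 0.0906 CPM depending on the library, for counting error only.

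VCL, ZYX and FHL2 encode proteins of focal adhesions, the sites where actin filaments are anchored to integrins. VCL (chromosome 10, 73995193 to 74121363, plus strand) encodes vinculin and had 206 to 359.8 CPM. Its groups overlapped in all 4 comparisons of 2 groups, and its average effects were -0.16 ± 0.15 for starvation and 0.011 ± 0.15 for TRPML3. Without replicate 3 they were 0.028 ± 0.13 and -0.092 ± 0.13. ZYX (chromosome 7, 143381080 to 143391111, plus strand) encodes zyxin, a LIM-domain protein. It had 17.0, 38.4 and 38.9 CPM in vector fed, 50.5, 55.0 and 18.3 CPM in vector starved, 20.2, 27.7 and 34.7 CPM in TRPML3 fed and 38.3, 30.6 and 12.5 CPM in TRPML3 starved. In each plasmid, starved replicates 1 and 2 lay above fed replicates 1 and 2, and starved replicate 3 lay below fed replicate 3. The average starvation effect on ZYX was 0.19 ± 0.36 in log2 with all libraries (edgeR, adjusted p = 0.929) and 0.74 ± 0.29 without replicate 3 (edgeR, unadjusted p = 0.0429, adjusted p = 0.198). Without replicate 1 it was -0.32. The average TRPML3 effect was -0.40 ± 0.36, and -0.41 ± 0.29 without replicate 3.

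FHL2 (chromosome 2, 105357712 to 105438513, minus strand) encodes a LIM-only protein that binds integrins and also acts in the nucleus. It had 36.9, 42.2 and 25.4 CPM in vector fed and 27.7, 30.3 and 17.6 CPM in vector starved. It had 34.6, 40.2 and 25.2 CPM in TRPML3 fed and 26.9, 29.8 and 22.2 CPM in TRPML3 starved. Replicate 3 was the lowest library of each of the 4 groups, and groups overlapped through it. The log2 fold change was -0.47 ± 0.29 in vector and -0.34 ± 0.29 in TRPML3 cells, with an average of -0.41 ± 0.21 that did not pass (edgeR, unadjusted p = 0.0772, adjusted p = 0.588). Without replicate 3 the average was -0.41 ± 0.14 (edgeR, unadjusted p = 0.0229, adjusted p = 0.143). The average TRPML3 effect was near 0, at -0.0011 ± 0.21, and -0.050 ± 0.14 without replicate 3.

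**Figure D3:**
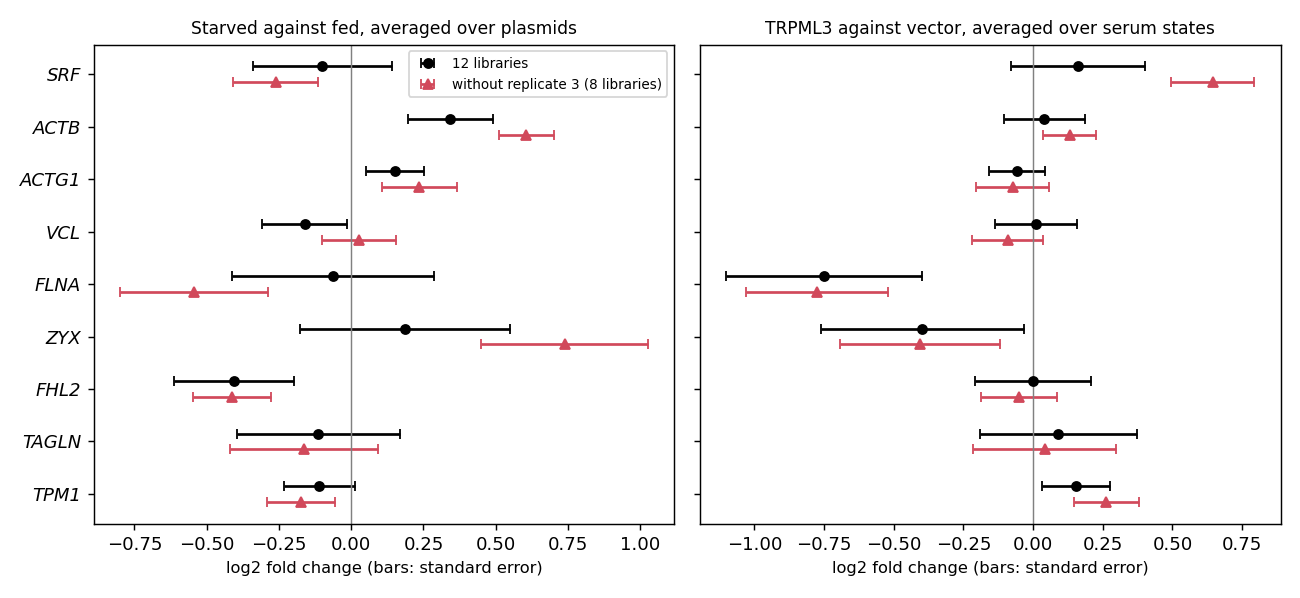
log2 fold changes with standard errors of the 9 tested genes for starvation (left) and TRPML3 (right), each averaged over the other factor, with all 12 libraries (black) and without replicate 3 (red). ACTB without replicate 3 (0.61 ± 0.095, starvation) is the only value at an adjusted p under 0.05.

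As a set, the 9 tested members did not share a direction. For average starvation, 3 had fold changes above 0 and 6 below, with a median of -0.10 beside 0.0062 over all genes. For average TRPML3, 5 were above and 4 below, with a median of 0.011 beside -0.011. Members tracked each other little across libraries. The highest Pearson correlation of log2 CPM between 2 members was 0.65, for ACTB and ACTG1, and the lowest was -0.67, for ACTB and FHL2, over 12 libraries that also share depth and group. These correlations are descriptions. The genes whose pattern was most like the mean of the members were FBXO38 (Pearson r = 0.87), RPL39P16 (0.83), KPNA4 (0.82), AUTS2 (0.82) and SNORA5B (0.80). RPL39P16 and SNORA5B averaged under 1 CPM. With the 2 actins left out of the mean, these r were 0.82, 0.63, 0.72, 0.63 and 0.73. Their ranks among the other genes were then 5, 185, 46, 200 and 38. By rank correlation (Spearman, actins kept), SNORA5B was at 0.60.

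**Figure D4:**
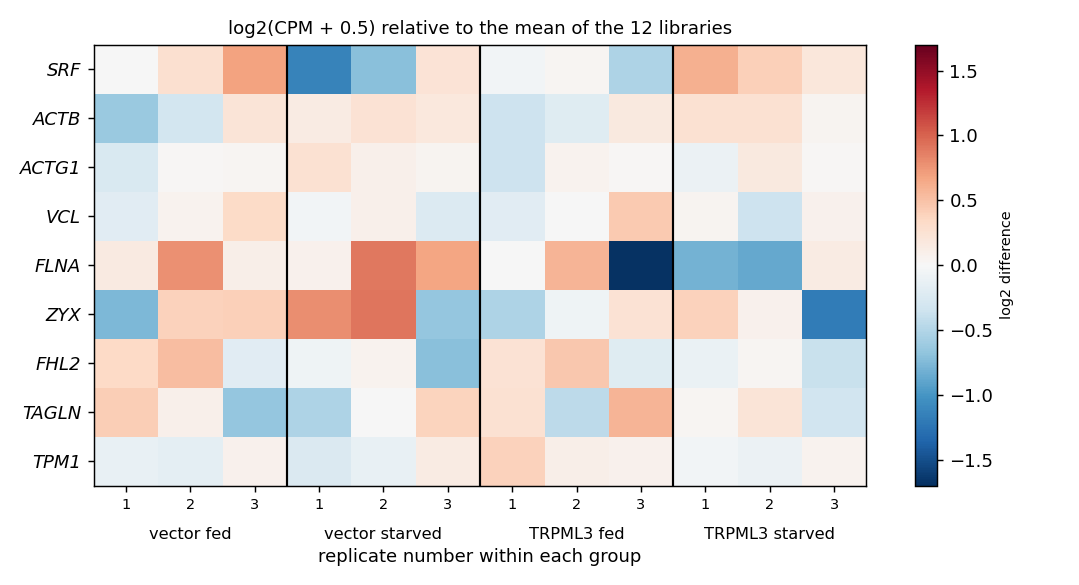
log2(CPM + 0.5) of the 9 tested genes in each library, as the difference from that gene's mean over the 12 libraries; columns are replicates 1 to 3 of each group. No column is high or low across all rows, and the widest differences are FLNA in TRPML3 fed replicate 3, ZYX in TRPML3 starved replicate 3 and SRF in vector starved replicate 1, each below its mean.

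Per kilobase of exon sequence (union of GENCODE 29 exons), the order of the levels was led by the actins. Group means were 413 to 477 CPM per kb for ACTG1 and 315 to 412 for ACTB. VCL followed at 25.1 to 28.4, SRF at 11.8 to 20.9, FLNA at 9.23 to 18.7 and ZYX at 7.80 to 11.9. TPM1 was at 5.55 to 6.68, FHL2 at 3.80 to 5.26 and TAGLN at 1.80 to 2.08. The ranges of group means of SRF, FLNA and ZYX overlapped each other, so their order is not fixed. The place of TPM1 depends on the length used and is not fixed either. Its exon union, 12.9 kb, is the longest among the members and counts the exons of all its transcripts. The spread between replicates also differed among members. Within-group SDs of log2 CPM were 0.15 for TPM1, 0.16 for ACTG1, 0.25 for VCL, 0.26 for ACTB, 0.35 for FHL2, 0.44 for SRF, 0.50 for TAGLN, 0.71 for FLNA and 0.73 for ZYX, beside a median of 0.55 over all tested genes. The highest library was 6.01 times the lowest for FLNA, 4.40 times for ZYX and 1.52 times for ACTG1.

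The other MRTF targets, 36 genes of muscle, adhesion and matrix, were also all tested and none was called for either average effect (edgeR). For average starvation 15 were above 0 and 21 below, with a median of -0.071. At an unadjusted p under 0.05 there were 1 higher and 3 lower for starvation, where 9.45% of all genes reached it, and 1 of each for TRPML3, where 2.62% did. FERMT2, the adhesion protein kindlin-2, had a log2 fold change of -0.58 ± 0.15 (edgeR, unadjusted p = 0.00238, adjusted p = 0.349). FERMT2 had 122 to 189 CPM in fed and 87.3 to 121 CPM in starved libraries, so the 2 conditions did not overlap. Such separation over 12 libraries was seen for 1.25% of genes tested. TUFT1, which encodes tuftelin, had -1.13 ± 0.29 with all libraries (edgeR, adjusted p = 0.349; DESeq2, adjusted p = 0.0375). For TRPML3, ANKRD1, a nuclear cofactor first known from heart, had 0.91 ± 0.25 (edgeR, unadjusted p = 0.00408, adjusted p = 1). ANKRD1 had 5.48 to 14.9 CPM in the 6 vector libraries and 16.3 to 30.2 CPM in the 6 TRPML3 libraries, with no overlap, which was seen for 0.155% of genes tested. WDR1, which helps to disassemble filaments, had -1.38 ± 0.58 (edgeR, adjusted p = 1), with 61.7 to 108 CPM in vector and 8.20 to 78.2 CPM in TRPML3 libraries.

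Without replicate 3, 3 of these 36 targets were called for average starvation, 2 higher and 1 lower (edgeR), against 2.54% of all genes called higher and 1.94% lower in that fit. PDLIM7, a PDZ and LIM protein of the cytoskeleton, gave 1.93 ± 0.19 (edgeR, adjusted p = 0.0248), ACTN4, an actin crosslinker, 0.61 ± 0.090 (edgeR, adjusted p = 0.0308), and TUFT1 -1.48 ± 0.16 (edgeR, adjusted p = 0.0259). Without replicate 1 and without replicate 2, PDLIM7 gave 0.90 and 0.88, ACTN4 0.20 and 0.20, and TUFT1 -0.74 and -1.11 (edgeR, adjusted p = 1 for each). PDLIM7 and ACTN4 were chosen after their values were seen. PDLIM7 had 3.31 to 4.31 CPM in fed replicates 1 and 2, 11.2 to 18.9 in starved replicates 1 and 2, 6.17 and 7.08 in fed replicates 3 and 5.24 and 4.46 in starved replicates 3. ACTN4 had 114 to 117 CPM in fed replicates 1 and 2 and 162 to 186 CPM in all other libraries, fed replicates 3 included. As with ACTB, the fed replicates 3 lay at the level of the starved libraries.

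The other branch of SRF control was represented by 14 immediate early genes, all tested, none called for either average effect (edgeR). For average starvation 6 were above 0 and 8 below, with a median of -0.15, and 1 was higher at an unadjusted p under 0.05, which 9.45% of all genes reached. MCL1, an antiapoptotic BCL2 relative, had 0.40 ± 0.13 (edgeR, unadjusted p = 0.0131, adjusted p = 0.399). Without replicate 3, 12 of the 14 were below 0, and 2 were called: DUSP1, a phosphatase of MAP kinases, at -1.13 ± 0.13, and ATF3, a stress-induced factor, at -1.16 ± 0.20 (edgeR, adjusted p = 0.0259 and 0.0382). In that fit 1.94% of all genes were called lower. The direction of the list rested on the libraries used: without replicate 1, 10 of the 14 were above 0 with a median of 0.17, and without replicate 2, 10 were above 0 with a median of 0.16, and none was called (edgeR). DUSP1 then was -0.26 and -0.30, and ATF3 -0.46 and -0.74 (edgeR, adjusted p = 1 for each). DUSP1 was chosen after its values were seen. DUSP1 had 86.4 to 94.4 CPM in fed replicates 1 and 2, 19.1 and 28.3 CPM in fed replicates 3, and 35.8 to 57.3 CPM in the starved libraries. For average TRPML3, 11 of the 14 were above 0, with a median of 0.16. FOSB and FOS had the smallest p, at 0.65 ± 0.38 and 0.58 ± 0.43 (edgeR, adjusted p = 1 for both).

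Relatives of the members that belong to the same protein families, 18 genes, had 15 tested and none called for either average effect, also without replicate 3 for starvation (edgeR). None reached an unadjusted p under 0.05. The muscle actin ACTC1 was near its detection limit, at 0 to 0.68 CPM, and FLNC, the muscle filamin, had 0 to 2.21 CPM, so no fold is given. FHL3 had -0.56 ± 0.39 for average TRPML3 (edgeR, adjusted p = 1).

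**Figure D5:**
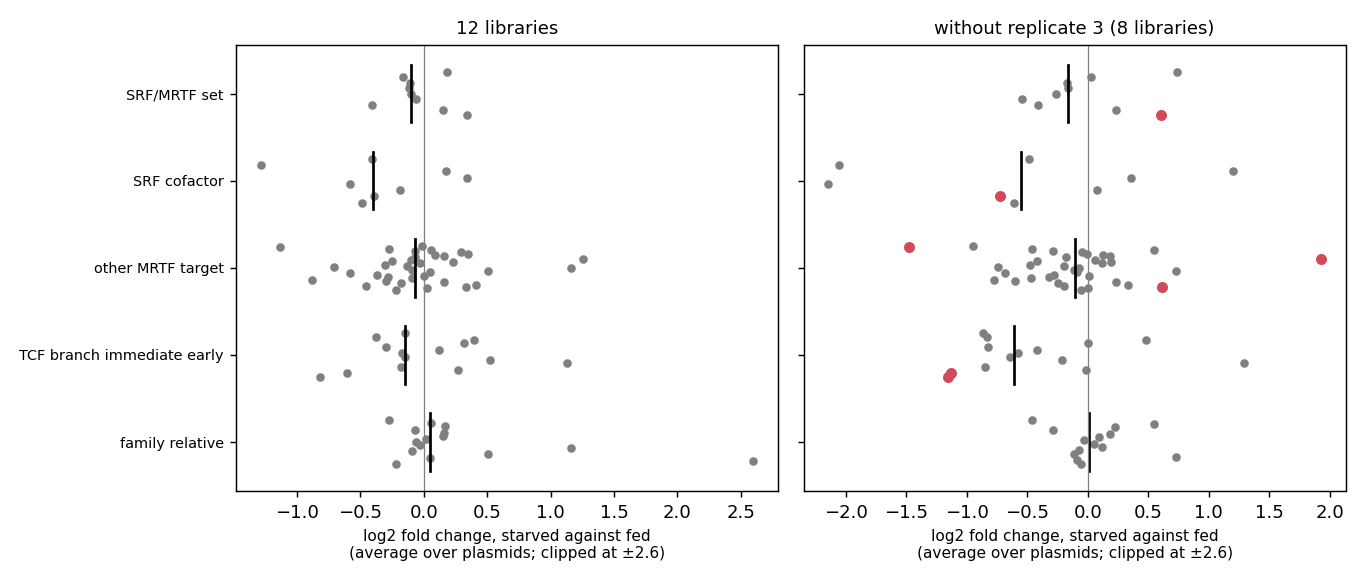
log2 fold changes for starvation, averaged over plasmids, of the tested genes of each list, with all 12 libraries (left) and without replicate 3 (right). Each point is a gene, vertical black bars are list medians, and values beyond 2.6 in size are drawn at 2.6, and red points are genes at an adjusted p under 0.05: none on the left, and on the right ACTB, ELK3, PDLIM7, ACTN4, TUFT1, DUSP1 and ATF3.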

How the data were processed

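Polyadenylated RNA from 12 HEK293T libraries (4 groups of 3) was measured. The deposited raw counts per gene were used for all tests. The authors' second table holds a normalized signal (counts divided by a size factor per library), used in 1 alternative. The submitters' processing notes name FastQC, fastp, HISAT2, StringTie, DESeq2 and GRCh38, without roles; whether the whole numbers are direct or rounded estimated counts, and whether strand was used, is not given in the sources used here. Counts were analysed with edgeR 4.0.16 in R 4.3.3 (TMM, filterByExpr, robust quasi-likelihood fit to all libraries, 1 coefficient per group, 8 residual degrees of freedom, Benjamini-Hochberg over 18030 genes at 0.05). Standard errors come from the log2 fold change and its F value. Library totals were 33101540 to 43700547. Alternatives were other scalings and filters, DESeq2 1.42.0, limma 3.58.1 on log2(signal + 1), a replicate block, 6-library fits, summed pseudogene rows, and left-out libraries.

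The members and lists were chosen with earlier results of these data known, and 1 further list is not reported here. Named genes were all members, per list the 2 genes with the smallest p for average starvation and for average TRPML3, any gene that edgeR called with all 12 libraries, and the 5 genes most correlated with the mean of the members. Same-numbered libraries were checked for pairing by correlating deviations from group means. Vector and TRPML3 fed libraries gave r of 0.11, 0.15 and 0.33, and starved ones 0.13, 0.095 and 0.32. Fed and starved libraries of 1 plasmid gave -0.076 to 0.0075. The main fit used no pairing, so its p-values and standard errors are unpaired. The replicate block, an alternative, joined each replicate number across all 4 groups. The test was tried on simulated counts for average starvation, in which 100 genes changed by a log2 of 1 and another 100 by 2. The calls given first are for changes of 1. At a biological coefficient of variation of 0.1 it called 100 of 100 changed genes among 17458. At 0.25 it called 84 of 100 among 17611, and at 0.5 it called 6 of 100 among 17750. Of the genes changed by 2, the same runs called 100, 100 and 87. Those calls ease the adjusted threshold for changes of 1, so the rates at 1 can be too high for the real data. False calls among unchanged genes were 8, 5 and 2. In the real data the common value of this coefficient was 0.527, and the tested members ran from 0.19 for ACTG1 to 0.47 for ZYX. Floors cover counting error only. Values after ± are standard errors, or SDs where marked, and reflect the spread between libraries.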

Additional observations from a re-analysis of the deposited data

Results flagged for a closer look

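The SRF interaction, a log2 difference of 1.34 ± 0.48 between the starvation responses of TRPML3 and vector cells, stands out because the 2 responses point in opposite directions. In vector cells the groups overlapped, as starved replicate 3 (78.1 CPM) lay above fed replicate 1 (65.8 CPM). All 3 TRPML3 starved libraries lay above all 3 TRPML3 fed ones, a separation in either direction seen for 11.2% of genes tested. MCOLN3 also differed between fed and starved TRPML3 libraries, and its part in the SRF values was not tested. The SRF interaction itself was tested and did not pass after adjustment over all genes (edgeR, unadjusted p = 0.0184, adjusted p = 1).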

How the results depend on the processing

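Over all alternatives, the 63 member fold changes gave 1611 values, of which 1486 kept their sign, 125 turned it and 1 passed an adjusted p of 0.05: ACTB for average starvation without replicate 3 (0.61). The largest fold change in size whose sign turned under any alternative was the FLNA interaction (0.54 in size). Counts of called members stayed at 0 under every other alternative in all 7 comparisons. Values for average TRPML3 turned sign with library size only for VCL (-0.0803), ACTB (-0.047) and TAGLN (-0.00883), a scaling that moved the median of all genes to -0.097 there and to -0.11 for TRPML3 against vector in starved cells. FHL2 for average TRPML3 turned to 0.010 with DESeq2 size factors, 0.016 with the replicate block, 0.0053 with DESeq2 and 0.020 with limma, and FLNA for average starvation to 0.023 with limma. The replicate block changed no member's call; the SRF interaction was 1.37 ± 0.50 with it (edgeR, unadjusted p = 0.0253, adjusted p = 1), and it lowered the genes called for TRPML3 against vector in fed cells from 2 to 0.

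With libraries left out, the median of the members ran from -0.062 to 0.12 for starvation in vector, -0.21 to 0.17 for starvation in TRPML3, -0.092 to 0.11 for TRPML3 in fed cells, -0.16 to 0.029 for average starvation, and its mean for starvation in TRPML3 was -0.036. Ranges that crossed 0 for average starvation were -0.35 to 0.029 for SRF, -0.32 to 0.028 for VCL, -0.28 to 0.14 for TAGLN, -0.54 to 0.31 for FLNA and -0.32 to 0.74 for ZYX. For average TRPML3 they were -0.14 to 0.64 for SRF, -0.092 to 0.13 for VCL, -0.048 to 0.17 for ACTB, -0.12 to 0.018 for ACTG1, -0.040 to 0.23 for TAGLN and -0.10 to 0.082 for FHL2, and for the FLNA interaction -1.21 to 0.069. Called members for average starvation ran from 0 to 1, SRF partners from 0 to 1, other MRTF targets from 0 to 3 and immediate early genes from 0 to 2, each with its highest count without replicate 3. DESeq2 called 1 of the other MRTF targets for average starvation, TUFT1 (-1.14 ± 0.32, DESeq2 adjusted p = 0.0375). It also called DIAPH1, a formin that assembles actin filaments, for TRPML3 against vector in fed cells (-4.27, DESeq2 adjusted p = 0.0148) and for average TRPML3 (-2.85, DESeq2 adjusted p = 0.0459); DIAPH1 had 26.7 CPM in vector fed replicate 2 and at most 2.09 CPM in the other libraries. It called CCN2 in the 4 comparisons of 2 groups and the interaction; CCN2 had 0 counts in 9 of the 12 libraries. DESeq2 called 43 genes for starvation in vector, 72 for starvation in TRPML3, 28 and 42 for TRPML3 in fed and starved cells, 22 for the interaction, and 206 and 29 for the average starvation and TRPML3 effects, against 1, 0, 2, 1, 0, 0 and 2 with edgeR. The cause of these differences was not tested.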

Other observations

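The share of ACTB in the summed ACTB and ACTG1 counts of a library, a ratio that does not depend on depth, was 42.7%, 43.5% and 52.7% in vector fed and 47.4%, 52.1% and 51.7% in vector starved. In TRPML3 cells it was 49.3%, 44.8% and 51.7% when fed and 55.4%, 50.9% and 49.6% when starved. Group means were 46.3 ± 5.53%, 50.4 ± 2.64%, 48.6 ± 3.50% and 52.0 ± 3.07% (SD, n = 3), and the groups overlapped.

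Among the TRPML3 libraries, FLNA and the transfected MCOLN3 can be read side by side, a choice made after their values were seen. FLNA was at 131 and 198 CPM in fed replicates 1 and 2, where MCOLN3 had 6211 and 4929 CPM, and at 145 CPM in starved replicate 3, where MCOLN3 had 16896 CPM. It was at 40.9, 75.6 and 71.9 CPM in fed replicate 3 and starved replicates 1 and 2, where MCOLN3 had 39972, 41362 and 58223 CPM. The relation was not tested. CCN2, a matrix gene of the MRTF and YAP programmes, had 403 counts in vector starved replicate 1, 1206 and 137 in TRPML3 fed replicates 1 and 3, and 0 in the other 9 libraries.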
